A study of Mus musculus with 5 samples.

Results

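The genes described here are 35 genes of protein folding and translocation at the endoplasmic reticulum (ER). They were chosen by name, as a list of stress sensors, chaperones, degradation factors, translocon subunits and glycosylation enzymes. The list was made with earlier results of these data known. All 35 of 35 were found among the 49315 genes of the count tables by matching their Ensembl identifiers to GENCODE M21 symbols. Each was read in 5 poly-A RNA libraries of mouse heart, labelled as whole tissue of mixed cell type. A group of 3 libraries came from mice kept for 18 weeks on food rich in fat and sucrose (HFHS), and the other group of 2 libraries from mice kept on standard chow for as long. Mice of both groups were injected once with iron dextran into a vein 48 hours before the heart was flushed with buffered saline and taken, so iron is common to both groups and its own effect was not measured here. The labels give no strain, sex, age or genotype for either group, and do not say whether the libraries came from separate mice. P-values therefore measure only the spread between these libraries.

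Proteins that a cell secretes or places in its membranes enter the ER through the Sec61 channel, lose their signal peptide to signal peptidase, and receive sugar chains from the oligosaccharyltransferase as they emerge. Chaperones, lectins and disulfide isomerases then fold them, and chains that fail to fold are pulled back out and degraded. When unfolded protein builds up, membrane sensors start the unfolded protein response: IRE1 (gene Ern1) splices the messenger RNA of Xbp1 into its active form, ATF6 is cut to release a transcription factor, and together these factors raise the genes of chaperones and of degradation. In heart muscle cells the ER is continuous with the sarcoplasmic reticulum that stores calcium, and fibroblasts and other secretory cells of the heart depend on the ER for matrix and signalling proteins.

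The libraries held 14362766 to 17774735 counts each. The members' counts ran from 21 in one library (Sdf2l1) to 13029 (Hspa5), and 2 members, Sdf2l1 and Sec61b, had a library with under 100 counts. All 35 members passed the filter on low counts. Levels are given as CPM, the counts scaled to a common library size with TMM factors, and log2 fold changes as HFHS minus chow, so that a negative value is lower in HFHS hearts. The 2 chow libraries differed in these genes: chow replicate 2 was above chow replicate 1 in 28 of 35 members and in 8 of 8 stress-induced chaperones, against 7105 of 14210 tested genes with counts in both.

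In HFHS hearts 16 of the 35 genes fell, 3 rose and 16 did not pass edgeR's quasi-likelihood test at a Benjamini-Hochberg adjusted p of 0.05 over all 14221 genes tested. Those that fell are 45.7% of the members, beside 18.7% of all tested genes called lower. Those that rose are 8.57%, beside 19.4% of all tested genes called higher. The list was chosen with earlier results of these data known, so these shares describe it and are no test of it. The median log2 fold change was -0.24 over the members and -0.01 over all tested genes. Every HFHS library lay below both chow libraries in 21 members, which is 60.0% of them, beside 29.4% of tested genes. Every HFHS library lay above both chow libraries in 4 members, 11.4% of them, beside 29.2% of tested genes. By role, the falls were in 6 of 9 genes of the translocon and signal peptidase, 4 of 8 stress-induced chaperones, 3 of 6 lectin chaperones and isomerases, 2 of 4 oligosaccharyltransferase subunits and 1 of 3 sensors and factors. The 3 that rose were the sensors Atf6 and Ern1 and the degradation adaptor Sel1l. Without chow replicate 2 the number that rose was 6 of 35, with Hyou1, Canx and Herpud1 added, beside 16.8% of all genes tested in that fit, so the share that rose was then near that of all genes. The number that fell was 13 of 35, beside 15.7% of all genes. The median log2 fold change of the stress-induced chaperones was -0.23 with all libraries, -0.03 without chow replicate 2 and -0.40 without chow replicate 1.

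**Figure D1:**
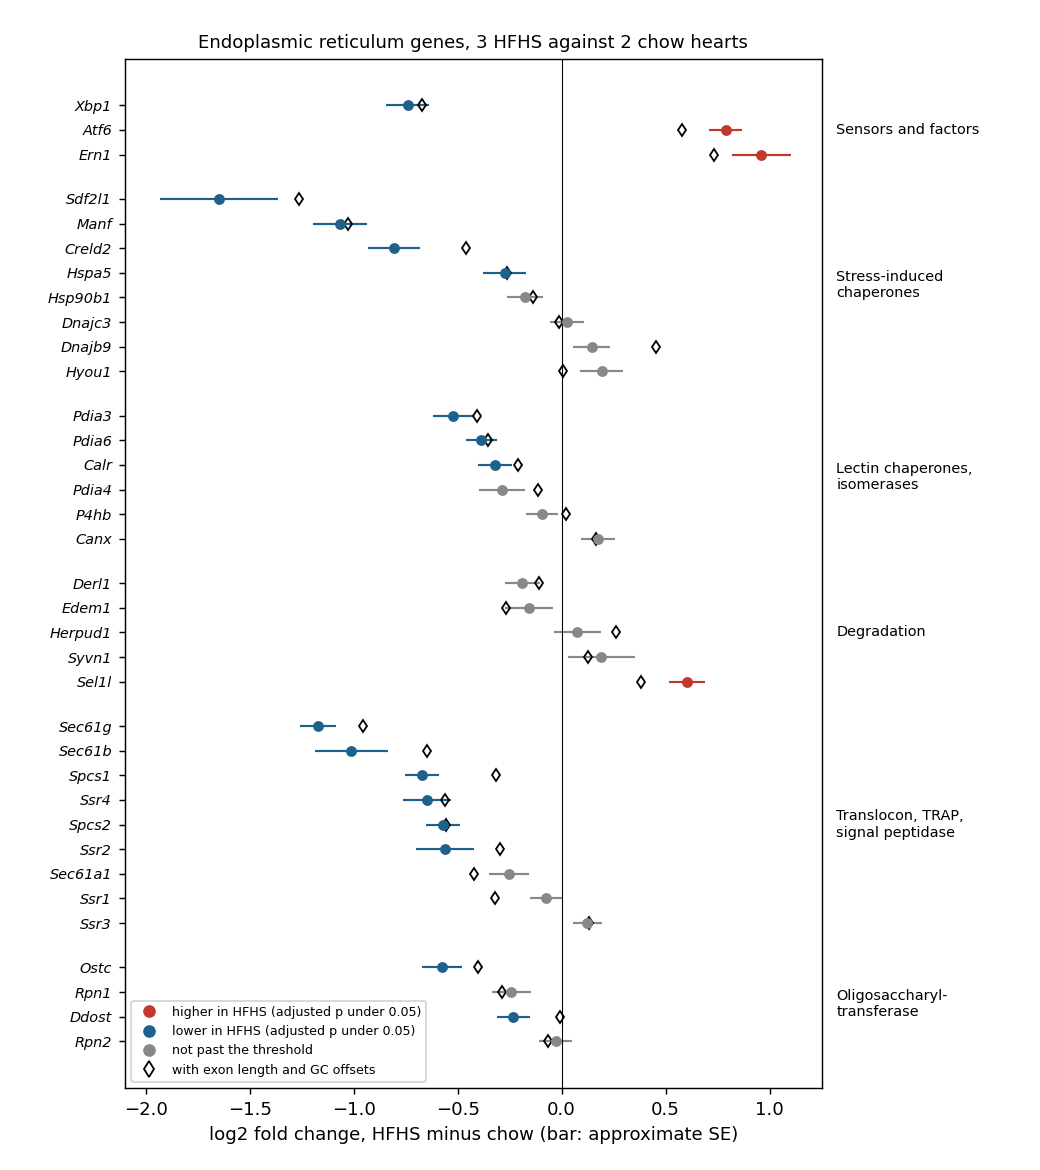
Log2 fold change of each gene, HFHS minus chow, by role; points are edgeR estimates from 3 HFHS and 2 chow libraries, bars are approximate standard errors, and open diamonds are the estimates with exon length and GC offsets. Sdf2l1, Sec61g, Manf and Sec61b lie at or beyond -1 on the log2 scale, while Ern1 and Atf6 lie farthest to the right.

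The sensor genes Ern1 and Atf6 rose, and Xbp1, whose message IRE1 splices, fell. The gene of the third sensor, PERK (Eif2ak3, of the companion list), had a log2 fold change of -0.16 and did not pass, with an edgeR adjusted p of 0.407, and nor did the ATF6 relative Atf6b, at -0.03 and 0.89. Ern1 (ENSMUSG00000020715, chromosome 11 from 106394650 to 106487852, GRCm38) encodes the kinase and RNase IRE1. It was at 8.99 and 8.28 CPM in chow replicates 1 and 2 and 14.5, 19.3 and 16.7 CPM in HFHS replicates 1, 2 and 3. All 3 HFHS libraries were above both chow libraries, and the gene rose 1.94-fold, a log2 difference of 0.96 (SE 0.142) at an edgeR adjusted p of 1.20e-04. Atf6 (ENSMUSG00000026663, chromosome 1 from 170704674 to 170867771) encodes the sensor that is cut in the Golgi. It was at 70.9 and 78.4 CPM in chow replicates 1 and 2 and 124, 134 and 128 CPM in HFHS replicates 1, 2 and 3. The groups did not overlap, and Atf6 rose 1.73-fold, a log2 difference of 0.79 (SE 0.0789) at an adjusted p of 4.20e-06. Xbp1 (ENSMUSG00000020484, chromosome 11 from 5520659 to 5525893) encodes the transcription factor made from the message that IRE1 splices. It was at 70.6 and 91.4 CPM in chow replicates 1 and 2 and 51.9, 45.4 and 48.2 CPM in HFHS replicates 1, 2 and 3. It was below both chow libraries in every HFHS library and fell 1.67-fold, a log2 difference of -0.74 (SE 0.104) at an adjusted p of 8.05e-05. Counts per gene add spliced and unspliced Xbp1 messages, so the activity of IRE1 was not measured.

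Among the 8 stress-induced chaperones and cochaperones, Sdf2l1, Manf, Creld2 and Hspa5 fell, and none rose. Sdf2l1 (ENSMUSG00000022769, chromosome 16 from 17130138 to 17132383) encodes an ER protein that keeps clients soluble in the chaperone cycle. It was at 4.39 and 7.83 CPM in chow replicates 1 and 2 and 1.94, 1.51 and 2.37 CPM in HFHS replicates 1, 2 and 3. It fell 3.13-fold, a log2 difference of -1.65 (SE 0.283) at an adjusted p of 4.03e-04. Only 21 to 141 counts per library stand behind it. Manf (ENSMUSG00000032575, chromosome 9 from 106838312 to 106891979) encodes a protein that binds the chaperone BiP and is secreted under stress. It was at 42.7 and 62.8 CPM in chow replicates 1 and 2 and 26.5, 25.1 and 23.9 CPM in HFHS replicates 1, 2 and 3. The groups did not overlap, though the chow libraries were far apart, and Manf fell 2.09-fold, a log2 difference of -1.07 (SE 0.132) at an adjusted p of 2.69e-05. On the opposite strand Dcaf1 shares 146 exon bases with it (4.14% of its exon length). Creld2, an ER protein that can be secreted, was at 14.8 and 16.3 CPM in chow replicates 1 and 2 and 8.37, 8.83 and 9.46 CPM in HFHS replicates 1, 2 and 3. It fell 1.75-fold with an adjusted p of 1.77e-04. When exon length and GC content were offset, its log2 fold change of -0.81 became -0.46.

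Hspa5 and the genes of this role without a call had smaller differences. Hspa5, the Hsp70 chaperone BiP that also holds the sensors inactive, was at 523 and 724 CPM in chow replicates 1 and 2 and 518, 519 and 509.7 CPM in HFHS replicates 1, 2 and 3. Chow replicate 1 was close to all HFHS libraries and chow replicate 2 stood above them. The log2 fold change was -0.27 (SE 0.103) at an edgeR adjusted p of 0.049. Leaving out chow replicate 2 gave an adjusted p of 0.855 at a log2 fold change of -0.02 (range of the adjusted p over 14 alternatives 6.41e-05 to 0.855). The call was kept in 6 of the 14 alternatives, and was also lost without each HFHS replicate, with DESeq2's size factors, with voom, without mitochondrially encoded genes and with the length and GC offsets. The Hsp90 of the ER, Hsp90b1, was at 379 ± 52.2 CPM in chow and 335 ± 19.4 CPM in HFHS hearts (SD, n = 2 chow and n = 3 HFHS) and did not pass in edgeR's fit, with an adjusted p of 0.125; without chow replicate 1 the log2 fold change was -0.31 and the adjusted p 0.00802 (range over the alternatives 0.00802 to 0.827). The nucleotide exchange factor Hyou1 had a log2 fold change of 0.19, the J-domain cochaperone Dnajb9 one of 0.14 and the J-domain cochaperone Dnajc3 one of 0.03, with edgeR adjusted p of 0.163, 0.22 and 0.833. Dnajb9 passed with the length and GC offsets, at a log2 fold change of 0.45 and an adjusted p of 0.00157 (range over the alternatives 0.00157 to 0.473). Hyou1 passed without chow replicate 2, at 0.37 and an adjusted p of 0.0167 (range over the alternatives 0.0167 to 0.97).

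**Figure D2:**
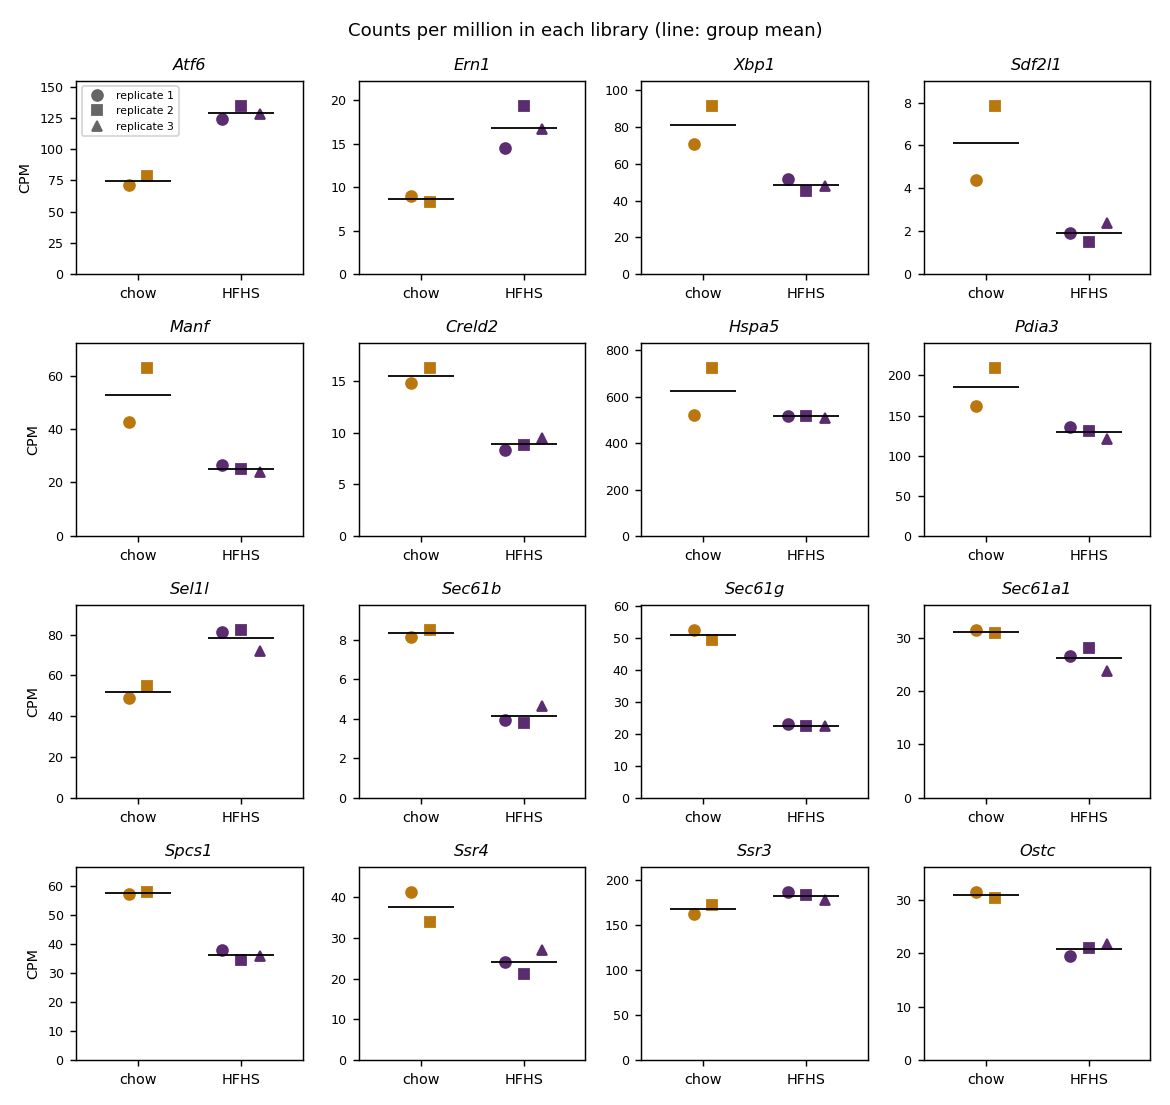
Level in CPM of 16 of the genes in each library, with a line at the group mean; chow libraries are left and HFHS libraries right in each panel, and each vertical axis starts at 0. In Hspa5 chow replicate 1 lies at the level of the HFHS libraries, while in Sec61g, Spcs1 and Ostc both chow libraries lie close together and above all HFHS libraries.

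Many ER chaperone genes carry an ER stress response element (ERSE) before their start, to which ATF6 binds together with the factor NF-Y. RefSeq promoters of GRCm38.p6 were matched for 28 of the 35 members; Atf6, Derl1, Hyou1, Manf, Ostc, Sec61a1 and Ssr2 were not among them. The 250 bases before each start were searched on both strands for the ERSE, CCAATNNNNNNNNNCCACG, for the ERSE-II, ATTGGNCCACG, and for the core of the XBP1 element, TGACGTGG. The ERSE was found in 8 of the 28 members (28.6%) and in 35 of 27025 genes with such a promoter (0.130%). ER chaperone genes are where this element is known, and the members were chosen by name. These shares therefore describe the list and are no test of it. The ERSE-II was found in Herpud1 alone of the members (3.57%) and in 10 of all these genes (0.0370%). The XBP1 core was found in 0 of the 28 and in 163 of all these genes (0.603%); no member's window held more than 1 kind of element. The matches are shown because the ERSE was found in a larger share of the members than of all promoters, each on the strand of its gene, 5′ to 3′, with the element in capitals and 15 bases on either side; in Calr, Creld2 and the second window of Hsp90b1 the element lies on the other strand and is read as its reverse complement.
Hspa5, chr2:34772010-34772058, + strand: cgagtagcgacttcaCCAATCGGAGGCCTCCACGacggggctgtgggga
Hsp90b1, chr10:86705623-86705671, - strand: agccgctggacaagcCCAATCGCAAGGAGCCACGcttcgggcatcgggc
Hsp90b1, chr10:86705518-86705566, - strand: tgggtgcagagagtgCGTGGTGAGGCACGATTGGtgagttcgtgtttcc
Creld2, chr15:88819505-88819553, + strand: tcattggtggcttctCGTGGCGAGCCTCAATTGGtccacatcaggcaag
Calr, chr8:84847060-84847108, - strand: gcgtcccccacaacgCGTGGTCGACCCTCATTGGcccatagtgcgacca
Canx, chr11:50325785-50325833, - strand: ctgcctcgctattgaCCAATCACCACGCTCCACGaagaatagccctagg
Pdia6, chr12:17266476-17266524, + strand: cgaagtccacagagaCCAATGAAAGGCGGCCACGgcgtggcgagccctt
Dnajc3, chr14:118937812-118937860, + strand: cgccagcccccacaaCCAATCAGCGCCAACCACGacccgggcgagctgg
Syvn1, chr19:6046517-6046565, + strand: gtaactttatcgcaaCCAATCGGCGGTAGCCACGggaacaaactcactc
Herpud1, chr8:94386362-94386402, + strand: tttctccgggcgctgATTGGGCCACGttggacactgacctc

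The element in Hspa5 ends 47 bases before the start and that in Calr 144 bases before it. Of the 8 members with an ERSE, Hspa5, Creld2, Calr and Pdia6 fell and Hsp90b1, Canx, Dnajc3 and Syvn1 did not pass, and their median log2 fold change was -0.23. Of the other 20 matched members 9 fell, 2 rose and 9 did not pass, with a median of -0.24. These medians rest on the chow libraries: without chow replicate 1 they were -0.36 with and -0.29 without the element, and without chow replicate 2 they were -0.03 and -0.18. With the length and GC offsets they were -0.17 and -0.28. Whether members with and without the element differed was not tested. A match describes the letters of the window and does not show that a factor binds there.

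Lectin chaperones hold glycoproteins through their sugar chains, and disulfide isomerases form and reshuffle their disulfide bonds. Pdia3, the isomerase that works with both lectins, was at 162 and 209 CPM in chow replicates 1 and 2 and 136, 131 and 120.3 CPM in HFHS replicates 1, 2 and 3. It fell 1.44-fold, a log2 difference of -0.52 (SE 0.0979) at an adjusted p of 7.96e-04; without chow replicate 2 the log2 fold change was -0.33, still past the threshold. Pdia6, another isomerase, was at 85.9 and 89.7 CPM in chow replicates 1 and 2 and 68.8, 65.8 and 66.9 CPM in HFHS replicates 1, 2 and 3. The groups did not overlap, and Pdia6 fell 1.31-fold with an adjusted p of 9.09e-04. Calr encodes calreticulin, the soluble lectin that also stores calcium. It was at 271 and 325 CPM in chow replicates 1 and 2 and 243, 241 and 231 CPM in HFHS replicates 1, 2 and 3. Calr fell 1.249-fold with an edgeR adjusted p of 0.00625, but lost its call without chow replicate 2, with 0.0815 at a log2 fold change of -0.19, and with the length and GC offsets, with 0.067 at -0.21 (range over the alternatives 1.58e-04 to 0.0815). Canx, the membrane-bound lectin calnexin, was at 298 ± 22.5 CPM in chow and 337 ± 27.5 CPM in HFHS hearts, the isomerase P4hb at 181 ± 5.04 CPM in chow and 169.5 ± 10.3 CPM in HFHS hearts and the isomerase Pdia4 at 34.6 ± 3.92 CPM in chow and 28.3 ± 3.16 CPM in HFHS hearts (SD, n = 2 chow and n = 3 HFHS). None of these isomerase and lectin genes passed, with edgeR adjusted p of 0.109 for Canx, 0.349 for P4hb and 0.0524 for Pdia4, although Pdia4 was lower in every HFHS library than in either chow library. Pdia4 passed in 5 of the 14 alternatives and Canx, as higher, in 3 (ranges of the adjusted p 0.0234 to 0.474 and 0.014 to 0.432).

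ER-associated degradation returns misfolded chains to the cytosol. None of its 5 members fell, beside 18.7% of all tested genes called lower. With 5 genes this cannot be told apart from that share. Of the 24 tested companions of this role 6 fell. Sel1l encodes the adaptor that stabilises the ubiquitin ligase HRD1 (gene Syvn1). It was at 48.9 and 54.6 CPM in chow replicates 1 and 2 and 81.3, 82.2 and 72.2 CPM in HFHS replicates 1, 2 and 3. All HFHS libraries were above both chow libraries, and Sel1l rose 1.52-fold, a log2 difference of 0.60 (SE 0.0879) at an adjusted p of 1.09e-04; with the offsets for length and GC it was a log2 difference of 0.38, still past the threshold. Syvn1 itself was at 14.4 ± 2.86 CPM in chow and 16.4 ± 3.16 CPM in HFHS hearts, with an edgeR adjusted p of 0.385. Herpud1, a membrane protein that organises the ligase complex, was at 102 and 140.4 CPM in chow replicates 1 and 2 and 117, 130.3 and 135 CPM in HFHS replicates 1, 2 and 3. The HFHS libraries lay between the chow libraries, and the log2 fold change was 0.08. Leaving out chow replicate 1 gave -0.14, and leaving out chow replicate 2 gave 0.33, which passed in edgeR with an adjusted p of 0.0136 (range over the alternatives 0.0136 to 0.854). Derl1, a channel-like component of the exit route, had a log2 fold change of -0.19 and passed only with upper-quartile factors, and Edem1, which selects glycoproteins for degradation, had one of -0.16, with edgeR adjusted p of 0.0908 and 0.316 (range for Derl1 over the alternatives 0.0433 to 0.366).

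The translocon group held the most falls. Sec61g (ENSMUSG00000078974, chromosome 11 from 16500530 to 16508484) encodes the small gamma subunit of the channel through which nascent chains enter. It was at 52.3 and 49.3 CPM in chow replicates 1 and 2 and 22.9, 22.5 and 22.3 CPM in HFHS replicates 1, 2 and 3. The libraries of each group were close together and the groups far apart, and Sec61g fell 2.25-fold, a log2 difference of -1.17 (SE 0.0859) at an adjusted p of 2.67e-07. Sec61b, the other small subunit, was at 8.17 and 8.499 CPM in chow replicates 1 and 2 and 3.93, 3.80 and 4.66 CPM in HFHS replicates 1, 2 and 3. It fell 2.01-fold, a log2 difference of -1.01 (SE 0.173) at an adjusted p of 4.03e-04, from 53 to 153 counts per library, and with the offsets for length and GC it was a log2 difference of -0.65, still past the threshold. The large pore subunit Sec61a1 was at 31.4 and 30.8 CPM in chow replicates 1 and 2 and 26.5, 28.1 and 23.7 CPM in HFHS replicates 1, 2 and 3. Its libraries did not overlap between the groups either, but the log2 fold change of -0.25 did not pass in edgeR, with an adjusted p of 0.0552. With the length and GC offsets it was -0.42 and passed with 0.0036 (range over the alternatives 0.0036 to 0.186).

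Signal peptidase cuts the signal peptide from the entering chain. Its subunit Spcs1 was at 57.1 and 57.8 CPM in chow replicates 1 and 2 and 37.8, 34.5 and 35.8 CPM in HFHS replicates 1, 2 and 3, and fell 1.59-fold, a log2 difference of -0.67 (SE 0.0814) at an adjusted p of 2.33e-05. With the length and GC offsets this log2 fold change was -0.32, still past the threshold. On the opposite strand Glt8d1 shares 276 exon bases with Spcs1, which is 17.9% of the exon length of Spcs1, and had 315 to 457 counts per library against 481 to 1054 for Spcs1. The strand setting of the counting is not given in the sources used here. Spcs2, another subunit, was at 48.5 and 50.6 CPM in chow replicates 1 and 2 and 33.4, 32.8 and 33.8 CPM in HFHS replicates 1, 2 and 3. The groups did not overlap, and Spcs2 fell 1.49-fold with an adjusted p of 9.42e-05.

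The translocon-associated protein (TRAP) complex sits beside the channel and helps some signal peptides to open it. Its delta subunit Ssr4 was at 41.3 and 34.1 CPM in chow replicates 1 and 2 and 24, 21.1 and 27.1 CPM in HFHS replicates 1, 2 and 3. Ssr4 fell 1.56-fold with an adjusted p of 5.72e-04. The beta subunit Ssr2 was at 33.7 and 26.7 CPM in chow replicates 1 and 2 and 18.3, 18.2 and 25 CPM in HFHS replicates 1, 2 and 3. HFHS replicate 3 came near chow replicate 2, and Ssr2 fell 1.47-fold with an edgeR adjusted p of 0.00611; the call was lost without chow replicate 1, with 0.0801 at a log2 fold change of -0.38, and with the length and GC offsets, with 0.113 at -0.30 (range over the alternatives 2.78e-06 to 0.113). The alpha subunit Ssr1 was at 63.9 ± 1.71 CPM in chow and 60.6 ± 0.746 CPM in HFHS hearts and the gamma subunit Ssr3 at 168 ± 7.09 CPM in chow and 183 ± 4.72 CPM in HFHS hearts (SD, n = 2 chow and n = 3 HFHS). Neither passed in edgeR's fit, with adjusted p of 0.466 and 0.188, and their log2 fold changes were -0.08 and 0.12. With the length and GC offsets Ssr1 was at -0.32 and passed with 0.00389 (range over the alternatives 0.00389 to 0.735), while Ssr3 passed in none of the 14 alternatives. The subunits of this complex thus had fitted differences on both sides of 0, and differences between subunits were not tested.

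The oligosaccharyltransferase attaches preassembled sugar chains to asparagines of the entering protein. Ostc, a small subunit that ties the enzyme to the translocon, was at 31.5 and 30.3 CPM in chow replicates 1 and 2 and 19.5, 20.9 and 21.8 CPM in HFHS replicates 1, 2 and 3. The groups were well apart, and Ostc fell 1.49-fold, a log2 difference of -0.57 (SE 0.0953) at an adjusted p of 3.06e-04. Ddost, a structural subunit, was at 51.2 and 53.5 CPM in chow replicates 1 and 2 and 45.2, 45.3 and 43.3 CPM in HFHS replicates 1, 2 and 3. It fell 1.17-fold with an edgeR adjusted p of 0.0332; the call was lost in 9 of the 14 alternatives, and with the offsets for length and GC it was a log2 difference of -0.01 (range of the adjusted p 0.0155 to 0.943). Each of the 5 fits that left out a library lost it. The ribophorin genes Rpn1 and Rpn2 were at 63.8 ± 4.69 CPM in chow and 53.9 ± 5.57 CPM in HFHS hearts and at 68.1 ± 3.68 CPM in chow and 66.8 ± 2.45 CPM in HFHS hearts (SD, n = 2 chow and n = 3 HFHS). They did not pass in edgeR's fit, with adjusted p of 0.0553 and 0.808; Rpn1 was lower in every HFHS library than in either chow library and passed in 7 of the 14 alternatives (range 0.00515 to 0.269).

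**Figure D3:**
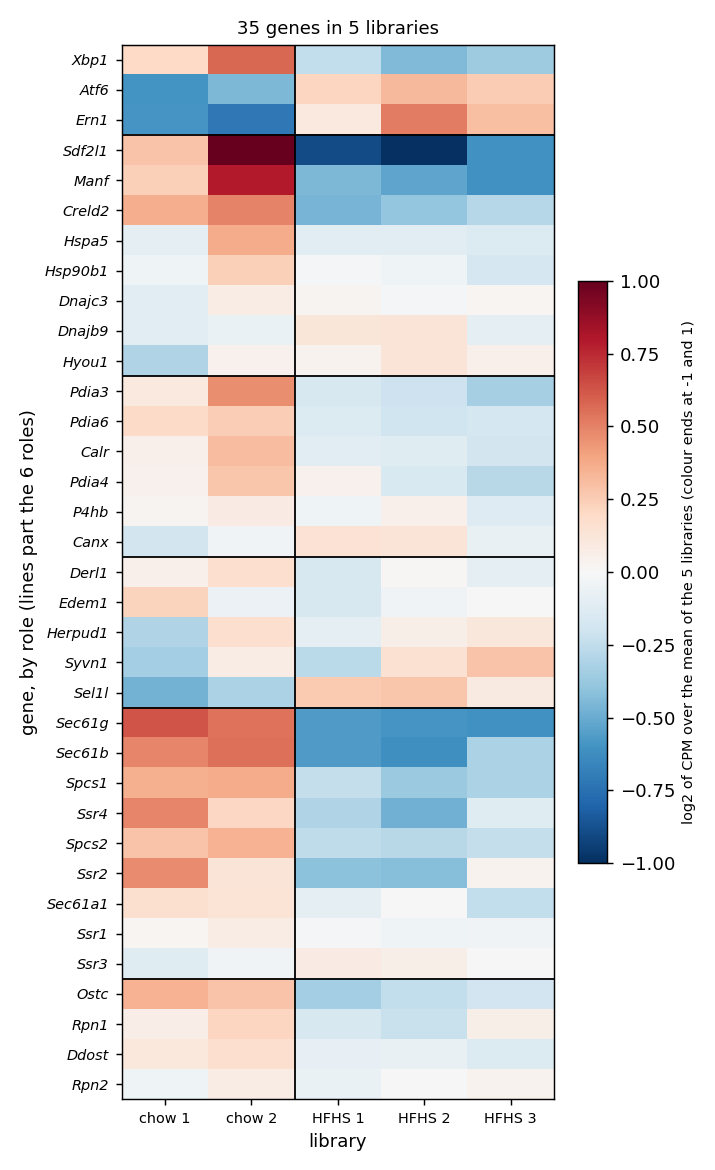
All 35 genes in the 5 libraries, as log2 of the CPM over the gene's mean in the 5 libraries (colour scale from -1 to 1), ordered by role and by fold change within it. Sec61g, Spcs1 and Ostc are even within each diet group, while Manf, Hspa5 and Pdia3 are highest in chow replicate 2.

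Per kilobase of exon, the level of Hspa5 was the highest of the members in both groups, at 147 CPM per kilobase in chow and 122 in HFHS hearts. Next were Calr with 103 and 82.7 CPM per kilobase, and Hsp90b1 with 93.9 and 83.1; in HFHS hearts these 2 genes had nearly the same level. Ern1 was lowest of the members in chow hearts and Sdf2l1, at 1.75 CPM per kilobase, in HFHS hearts. Ern1 stood at different levels in the groups, with 1.06 and 2.06 CPM per kilobase. Within the Sec61 channel the level per kilobase in chow hearts was 20.6 for Sec61g, 6.56 for Sec61b and 4.62 for Sec61a1. In HFHS hearts it was 9.17, 3.25 and 3.88. Each level was divided by the exon length in the count tables, which is not the length of the message. Comparisons between genes are therefore approximate. Processed pseudogenes of Sec61g share sequence with it; the closest in sequence, Gm10177, had 5 to 18 counts per library against 314 to 967 for Sec61g. The counting of multi-mapped reads is not given in the sources used here.

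Fold changes followed exon length among all genes of these libraries. Exon length is that of the count tables, over all annotated exons of a gene. It can exceed the length of the message expressed, which was not measured, so the bin of a gene is approximate. Split by exon length into 10 bins, tested genes had a median of -0.47 in the first and 0.32 in the last. The median exon length was 3524 bases in the members and 4009 in all tested genes. Against the median of its own length bin, the log2 fold change was lower in 25 of the 35 members, with a median difference of -0.24. The rank correlation of log2 fold change with exon length (Spearman's rho) was 0.659 over the members and 0.430 over all tested genes. With the offsets for exon length and GC content it was 0.383 and 0.037, so a trend with length remained among the members. Sec61g (2464 bases) was 0.99 below its bin, Manf (3524 bases) 1.03 below and Xbp1 (3248 bases) 0.62 below, while Ern1 (8173 bases) was 0.75 above its bin and Atf6 (9231 bases) 0.58 above. Creld2, with 1364 bases, was 0.34 below a bin whose median was -0.47. Ern1, Atf6 and Sel1l, the members that rose, lie in the same bin of length. In that bin 36.1% of all tested genes were called higher and 6.40% lower. With offsets for exon length and GC content 15 of the 19 members kept their call and direction, and Hspa5, Calr, Ssr2 and Ddost lost theirs. Dnajb9 then passed as higher and Sec61a1, Ssr1 and Rpn1 as lower. In that fit 14.9% of all tested genes were called lower and 15.8% higher.

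**Figure D4:**
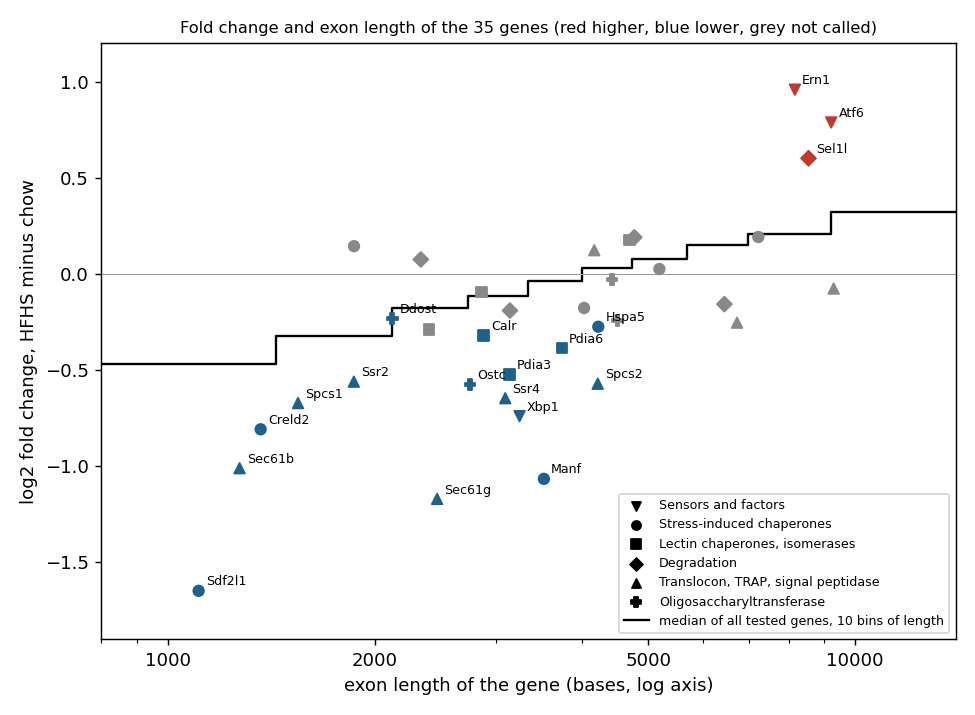
Log2 fold change (HFHS minus chow) of the 35 genes against their exon length on a log axis, with marker shapes for role and colours for the call; the black steps give the median of all tested genes in each of 10 bins of exon length. Sec61g, Manf, Xbp1 and Spcs2 lie well below the step of their length, and Ern1 and Atf6 above theirs.

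Markers of other cells moved with the diet groups in the same libraries. All 10 of 10 fibroblast markers were lower, with a summed level of 2490 to 2568 CPM in chow and 1738 to 1749 CPM in HFHS hearts, and all 10 of 10 macrophage markers were lower, at 483 to 563 CPM and 194 to 226 CPM. Of 10 endothelial markers 8 were lower and none higher (2134 to 2342 CPM and 1290 to 1317 CPM), of 8 pericyte and smooth muscle markers 3 were lower and 1 higher (1443 to 1444 CPM and 1261 to 1324 CPM), and 7 of 7 erythroid markers were lower (1487 to 1703 CPM and 250.4 to 524 CPM). Of 10 B and plasma cell markers 5 could be tested and 2 of these were lower, with a summed level of 11.6 to 22.2 CPM in chow and 9.22 to 12.5 CPM in HFHS hearts. Of 10 heart muscle markers 4 were lower and 4 higher, at 58979 to 64724 CPM in chow and 64568 to 67395 CPM in HFHS hearts, so the labelled tissue showed its defining genes. Fat markers summed to at most 0.663 CPM, with Adipoq, Cidec, Retn, Cfd and Lep at 3 counts or fewer in each library. Mesothelial markers summed to 7.03 to 9.12 CPM in chow and 8.56 to 12.9 CPM in HFHS hearts, with 3 of 4 tested higher; Msln and Lrrn4 had 0 counts in both chow libraries. The part of these cell types in the changes of the ER genes was not tested, and in bulk tissue fewer cells of a type and less RNA per cell cannot be told apart.

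A longer list of companion genes of the same roles was counted in the same way. Of 121 companions found, 119 could be tested; 38 of these fell (31.9%), 18 rose (15.1%) and 63 did not pass, with a median log2 fold change of -0.06, beside 18.7% of all tested genes lower and 19.4% higher. The share that rose was 33.3% among the genes listed with the sensors and factors. In the other roles it ran from 3.7% in glycosylation to 19% in lectin-cycle and redox genes, with 17.6% in chaperones and 16.7% in degradation. The shares in lectin-cycle, chaperone and degradation genes were near that of all genes. The share that fell was below that of all genes only in the list of sensors and factors, at 11.1%. With the length and GC offsets 4 of 21 lectin-cycle and redox genes, 3 of 17 chaperones and 5 of 24 degradation genes rose. In that fit 15.8% of all tested genes were called higher. Derl3 and Srp54a had at most 3 counts in a library and were not tested. Among the 9 companions listed with the sensors and factors 3 rose and 1 fell. When length and GC were offset, 1 was higher and 0 lower. The 1 still higher was Wfs1, at a log2 fold change of 0.66. Wfs1, an ER membrane protein, rose 1.56-fold from 47.2 ± 12.5 CPM to 73.7 ± 5.67 CPM (without chow replicate 1 its log2 fold change of 0.64 was 0.39), and Creb3, a membrane-held transcription factor, fell 1.38-fold, a call that was lost with the length and GC offsets at a log2 fold change of -0.29. Among 17 other chaperones and folding catalysts 7 fell and 3 rose; Cnpy2, a saposin-like ER protein, fell 1.604-fold and the proline isomerase Ppib, which acts on collagen, 1.49-fold. With the offsets 4 of these fell and 3 rose, and the log2 fold change of Cnpy2 went from -0.68 to -0.29. Among 21 lectin-cycle and redox genes 6 fell and 4 rose; Uggt1, the glucosyltransferase that senses misfolded glycoproteins, rose 1.505-fold (log2 fold change 0.59, and 0.26 with the offsets), and the thioredoxin-like Tmx1 fell 1.58-fold. Among 24 tested degradation genes 6 fell and 4 rose; Selenok, a selenoprotein of the ER membrane, fell 1.69-fold (log2 fold change -0.76, and -0.36 with the offsets), and the ubiquitin ligase gene March6 rose 1.41-fold. Among 21 tested targeting and translocation genes 9 fell and 3 rose, and Srp14 and Srp19, proteins of the signal recognition particle, fell 1.68-fold and 1.71-fold; with the offsets the log2 fold change of Srp14 went from -0.75 to -0.37. Among 27 glycosylation genes 9 fell and 1 rose; Ost4, the smallest subunit of the oligosaccharyltransferase, fell 1.90-fold (log2 fold change -0.92, and -0.56 with the offsets), and the glucosyltransferase Alg10b rose and was at 6.81 ± 1.62 CPM in chow and 17.1 ± 2.43 CPM in HFHS hearts.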

How the data were processed

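Poly-A RNA of mouse heart was sequenced in 3 HFHS and 2 chow libraries. The authors deposited a table of raw counts for each library, with gene coordinates. Named per the submitters' processing notes are STAR 2.5.2b, Trimmomatic 0.36, Subread 1.5.2 (featureCounts) and build GRCm38. Options, annotation release and strand setting: not given in the sources used here. Gene coordinates printed are those of the count tables, and marker sums use unadjusted library totals. Identifiers were matched to GENCODE M21, with 49056 of 49315 genes found.

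Counts were tested with edgeR 4.0.16 (R 4.3.3; filterByExpr, TMM, glmQLFit and glmQLFTest; Benjamini-Hochberg over all tested genes). The SE is the log2 fold change over the root of F, an approximation. Between replicates, the chi-square per degree of freedom was 2.64 to 8.84, so replicates differed beyond sampling noise. Alternatives were DESeq2 1.42.0, voom (limma 3.58.1), other size factors and filters, leaving out mitochondrially encoded genes or each library, a replicate block, and offsets per library fitted with mgcv 1.9.3 to exon length and transcript GC content. The fit was tested on simulated data. Transcripts were compared by BLAST 2.17.0 at 95% identity over 200 bases.

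Members, lists and roles were chosen with earlier results of these data known. Each member was to be named, with values per library for those past the threshold and for the largest changes of each role, and the 2 companions of each role with the smallest p. Protein sequences were not used here. Of the companion symbols, Hm13 was not matched.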

Additional observations from a re-analysis of the deposited data

How the results depend on the processing

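Of 19 called members 15 kept their call and direction in all 14 alternatives: Xbp1, Sdf2l1, Manf, Creld2, Pdia3, Pdia6, Sec61b, Sec61g, Ssr4, Spcs1, Spcs2, Ostc, Atf6, Ern1 and Sel1l. Calls of Hspa5, Calr, Ssr2 and Ddost were lost in at least 1 of them, and 10 of the 16 members without a call gained one in at least 1. Over the alternatives the members that fell numbered 13 to 20 and those that rose 3 to 6; leaving out a library gave 13 to 17 and 3 to 6, and the 6 came without chow replicate 2. Companions that fell numbered 28 to 39 and those that rose 12 to 19, with 32 to 37 and 12 to 19 when a library was left out. Of 490 member values over the alternatives, 438 kept their direction and side of the threshold, 24 passed anew, 21 no longer passed and 7, all of members without a call (Dnajc3, P4hb, Rpn2 and Herpud1), changed sign. The share of all tested genes called also differed between the alternatives. It was lowest with no filter on low counts, at 11.3% lower and 11.2% higher. It was highest with at least 1 CPM required in all libraries, at 21.6% lower and 21.8% higher. With 1 chow library left, its spread is assumed to be that of the HFHS group.

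The replicate numbers are shared by both diets, but nothing says that they pair mice. Deviations from the group mean correlated at 0.0348 for the libraries numbered 1 and at 0.0258 for those numbered 2. With only 2 chow libraries, their deviations are mirror images of each other, so these values are not separate checks of pairing. With the number as a replicate block, 16 members fell and 4 rose, and 39 companions fell. With this block 18.1% of all tested genes were called lower and 19.4% higher. No count of calls moved by over 1.5 times. HFHS replicate 3 has no chow library of the same number, so it adds nothing to the diet difference in this fit. Ddost lost its call, and Rpn1 and Canx passed.

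Depth limits Sdf2l1, with 21 to 141 counts per library, and Sec61b; intervals of counting error are not given for them. The floor of 3 counts corresponds to 0.169 to 0.209 CPM and covers counting error only.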

Other observations

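The oligosaccharyltransferase and the signal recognition particle each held subunits that fell and subunits without a call. These genes were chosen after their values were seen. Of the glycosylation companions, Ost4, Tmem258, Krtcap2, Tusc3 and Dad1 are subunits of the oligosaccharyltransferase that fell, with log2 fold changes of -0.92, -0.66, -0.82, -0.68 and -0.49. With the length and GC offsets these were -0.56, -0.35, -0.49, -0.61 and -0.49, all still past the threshold. The catalytic subunits Stt3a and Stt3b, which transfer the sugar chain, were at 38.1 ± 0.77 CPM in chow and 36.6 ± 1.57 CPM in HFHS hearts and at 53.5 ± 5.39 CPM in chow and 56.5 ± 3.79 CPM in HFHS hearts (SD, n = 2 chow and n = 3 HFHS), with edgeR adjusted p of 0.658 and 0.516. With the offsets Stt3a passed as lower, at a log2 fold change of -0.27.

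In the signal recognition particle, which brings ribosomes with a signal peptide to the ER, Srp9, Srp14 and Srp19 fell, with log2 fold changes of -0.69, -0.75 and -0.77. Srp9 was at 66.6 and 65.6 CPM in chow replicates 1 and 2 and 39.2, 42.3 and 41.8 CPM in HFHS replicates 1, 2 and 3, with no overlap between the groups. Srp68 and Srp72, its large subunits, were at 49 ± 1.59 CPM in chow and 50.9 ± 4.37 CPM in HFHS hearts and at 49 ± 1.28 CPM in chow and 56.4 ± 2.65 CPM in HFHS hearts (SD, n = 2 chow and n = 3 HFHS) and did not pass, with edgeR adjusted p of 0.675 and 0.0619. Whether the subunits differed from each other was not tested.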
